A study of Bos taurus with 2 samples.

Results

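The kinesin family was described gene by gene over the cell clusters of cultured bovine satellite cells. Its members were the genes in the deposited feature list whose symbol begins with KIF or KIFC followed by a number and, where there is one, a letter from A to C, and that had at least 1 unique molecular identifier (UMI) in the count matrix. Of 39 such symbols, 37 had a UMI, among 16816 genes with a UMI, and KIF2B and KIF12 had none. The 37 genes were divided by known function into 12 mitotic kinesins, 14 transport kinesins and 11 other kinesins. Apart from the UMI required, no measured level entered the rule for members, which was set with earlier results of these data known.

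Kinesins are motor proteins that hydrolyse ATP to move along microtubules or, in some subfamilies, to take microtubule ends apart. Mitotic kinesins build and focus the spindle, move chromosomes and organise the midzone from which the daughter cells separate, and their transcripts accumulate in late cell cycle phases. Transport kinesins carry organelles, vesicles, proteins and RNA through the cell at all times, and in muscle cells kinesin-1 with the heavy chain KIF5B is known for the positioning of nuclei and mitochondria.

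The cells were satellite cells, the muscle stem cells that give rise to myoblasts, isolated from the longissimus muscle of 1 male Holstein calf 2 weeks of age and cultured for 1 week in growth medium with fetal bovine serum and no treatment. From these cells 2 libraries, replicates 1 and 2, were made with the 10x Genomics chemistry that reads the 3′ end of transcripts, so they are not separate animals or cultures. Replicate 1 held 9939 cells with a median of 14626 UMIs and replicate 2 held 9157 cells with a median of 15206 UMIs, and 27 barcodes were present in both libraries. The cells fall in the 15 graph-based clusters of the authors, which are called here by their numbers and were made from the same counts.

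The clusters were told apart by lists of marker genes that contain no member of the family. The list of G2 and M phase genes does hold CENPE, a kinesin whose symbol lies outside the family rule. Genes of the G2 and M phases summed to 139.7 and 130.1 UMIs per 10000 UMIs in clusters 2 and 4. They summed to between 12.96 and 21.8 in clusters 1, 3, 8 and 12. Between these lay cluster 6 at 57.0, cluster 11 at 52.6, cluster 9 at 65.6 and the shallow cluster 7 at 92.2, among others. Genes of the S phase were highest in clusters 6 and 11, at 42.9 and 44.4, and lowest in cluster 12, at 6.52. Myocyte markers summed to 40.3 in cluster 12 and 9.01 in cluster 3, and the markers of fibro-adipogenic cells (PDGFRA, PPARG, ZNF423) to 1.99 in cluster 9 and 1.67 in the shallow cluster 7, with 0.654 in cluster 10 as the next. The satellite cell markers PAX7 and PAX3 had 492 UMIs together, the endothelial markers 73, the blood cell markers 2, and no UMI was assigned to the glial markers. Clusters 7, 13, 14 and 15 were shallow, with medians of 647 to 2513.5 UMIs per cell, and cluster 7 had 839.1 UMIs per 10000 UMIs on ribosomal protein genes where the other clusters had between 2046 and 2785. Values of the shallow clusters rest on few UMIs and are given apart.

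Kinesins took 0.165% of all UMIs, or 469066 UMIs, of which 60.6% came from transport kinesins, 32.2% from mitotic kinesins and 7.24% from other kinesins. KIF5B alone, the ubiquitous heavy chain of kinesin-1, had 222571 UMIs and was detected in 94.8% of the cells. KIF20B, a kinesin of cytokinesis, came next with 34237 UMIs. KIF2A, a microtubule depolymerase counted here among the other kinesins, had 22037 UMIs, KIF22, a chromosome-bound kinesin, 21933, KIF1C, a carrier of vesicles, 20898, KIF11, which slides spindle microtubules apart, 17698, KIF20A, which brings the chromosomal passenger complex to the midzone, 16288, and KIF3A, a heavy chain of the kinesin-2 that also serves cilia, 16115. Apart from KIF18B, the remaining mitotic kinesins had between 2846 (KIF14) and 13973 UMIs (KIF23), with 12772 for KIFC1, 10516 for KIF15, 9478 for KIF4A, 7109 for KIF2C and 3928 for KIF18A. Among the remaining transport kinesins, KIF3B had 5199 UMIs, KIF13A 3985, KIF16B 3138, KIF1A 3091, KIFC3 3079, KIF3C 1873, KIFC2 1747, KIF13B 1580 and KIF5C 899. Of the other kinesins, KIF21A had 5083 UMIs, KIF27 3870 and KIF24 1176. At the low end were 6 members with under 100 UMIs in 19096 cells, KIF6, KIF26B, KIF5A, KIF21B, KIF26A and KIF17, the last with 7 UMIs. KIF18B, a kinesin of astral microtubules, had 121 UMIs, 37 in replicate 1 and 84 in replicate 2, and its values are not read further. All levels below are UMIs of the gene per 10000 UMIs of all genes in the cells of a cluster, which for 3′ counting carries no division by length, and so levels of different kinesins are not ranked beyond their UMI counts.

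**Figure D1:**
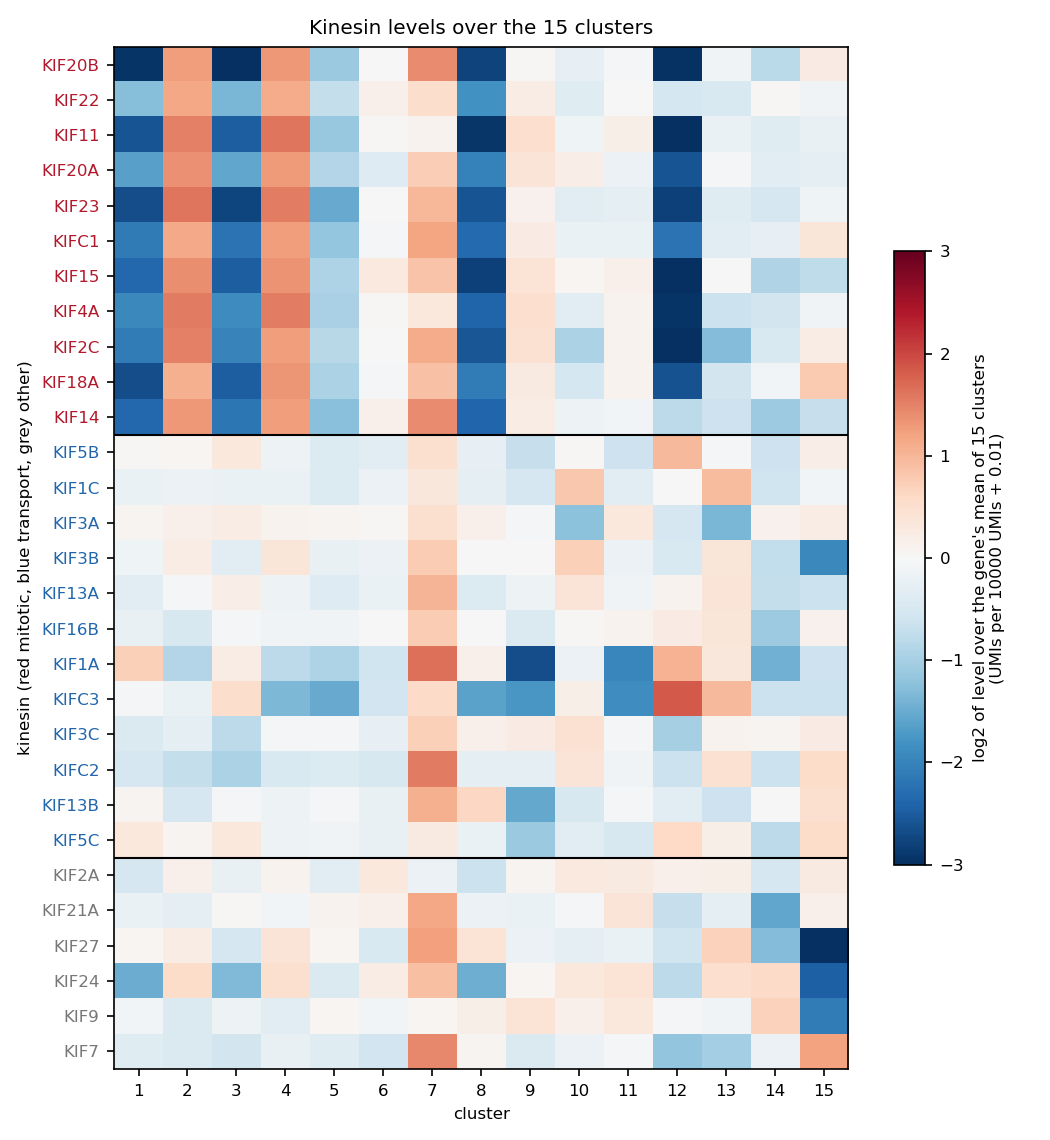
Level of each kinesin with at least 500 UMIs (rows) in each of the 15 clusters (columns), as the log2 ratio to the gene's mean over the clusters with 0.01 UMIs per 10000 UMIs added. Rows of mitotic kinesins (red names) were high in clusters 2 and 4 and low in clusters 1, 3, 8 and 12. KIF20B, KIF14 and KIFC1 were also high in the shallow cluster 7. Rows of transport kinesins (blue names) followed no common order over the deeper clusters. With both libraries pooled, KIF1A, KIF3A, KIF3B, KIF3C, KIF13A, KIF13B, KIF16B and KIFC2 were highest in cluster 7. So were KIF7, KIF21A, KIF24 and KIF27 of the other kinesins.

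The mitotic kinesins were concentrated in the clusters rich in G2 and M phase transcripts. Their summed level was 12.5 and 12.2 UMIs per 10000 UMIs in replicates 1 and 2 of cluster 2, and 12.5 and 12.1 in cluster 4. In the clusters rich in S phase transcripts it was 4.93 and 4.79 in cluster 6 and 4.82 and 4.64 in cluster 11. Cluster 9, the deeper of the 2 clusters with the most fibro-adipogenic markers, held 6.04 and 5.57, and cluster 5 held 2.27 and 2.34. The lowest sums were those of cluster 1 (0.976 and 1.03), cluster 3 (0.912 and 1.05), cluster 8 (0.801 and 0.832) and cluster 12 (1.01 and 1.01), so that the highest cluster stood 15.1 times above the lowest. Among the shallow clusters, cluster 7 had 9.92 and 8.77 and the others between 3.52 and 4.83. Clusters 2 and 4 together held between 52.7% (KIF22) and 67.5% (KIF23) of the UMIs of each of the 11 mitotic kinesins with at least 1000 UMIs, beside 26.2% of the UMIs of all genes.

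Transport kinesins covered a narrower range and a different order of clusters. Their sum was highest in cluster 12, at 18.9 and 18.4 UMIs per 10000 UMIs in the 2 libraries, and lowest in cluster 9, at 6.91 and 6.72, a ratio of 2.73. KIF5B made up 16.03 UMIs per 10000 UMIs of that sum in cluster 12, and both the lead of cluster 12 and the size of the ratio rested on this 1 gene. Without KIF5B the sum of the transport kinesins was highest among the 11 deeper clusters in cluster 10, at 2.93 and 2.88, followed by cluster 12, at 2.52 and 2.70, and was lowest in cluster 9, at 1.74 and 1.77, a ratio of 1.66 between cluster 10 and cluster 9. The shallow clusters 7 and 13 then stood above all of these, with means of 3.89 and 3.16. With KIF5B included, clusters 2 and 4, which led the mitotic kinesins, held 10.9 and 10.4 and 9.58 and 9.36, beside 10.8 and 10.4 in cluster 1 and 12.7 and 12.5 in cluster 3. Over the 11 deeper clusters the highest level of a mitotic kinesin was a median of 25.2 times its lowest level, with a range from 8.19 (KIF22) to 45.7 (KIF11). For the 11 transport kinesins with at least 1000 UMIs this median was 3.01, with a range from 1.73 (KIF16B) to 23.3 (KIF1A).

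**Figure D2:**
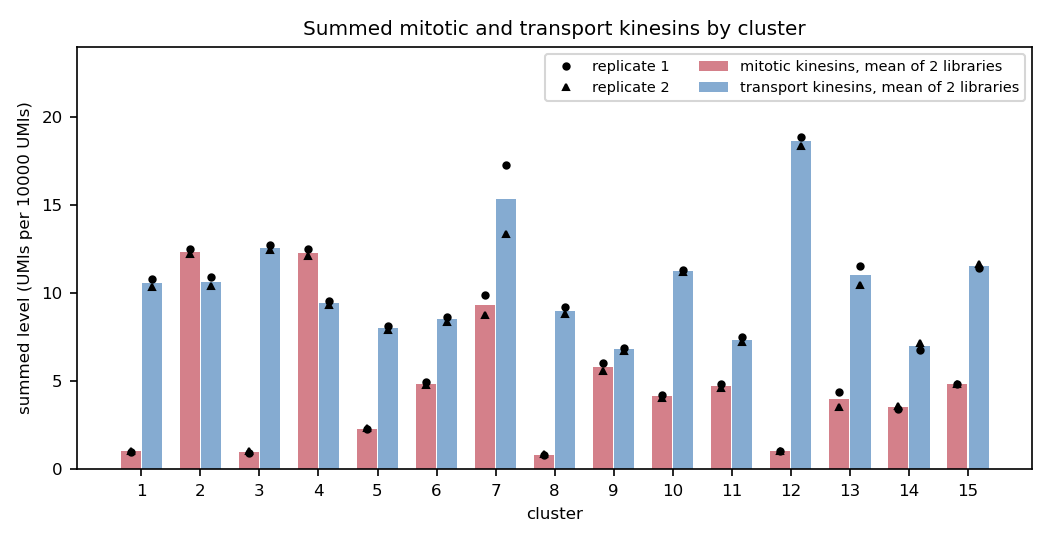
Summed level of the mitotic (red) and transport (blue) kinesins in each cluster, in UMIs per 10000 UMIs. Bars are means of the 2 libraries and symbols the single libraries. The mitotic sum was above the transport sum in clusters 2 and 4 alone, and the highest transport sum was that of cluster 12, of which KIF5B made up 16.03 UMIs per 10000 UMIs.

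The same division was seen in single cells after each cell was thinned to 5000 UMIs, which left out 3100 shallower cells. A cell of cluster 2 showed a mean of 4.14 of the mitotic kinesins and a cell of cluster 4 a mean of 4.21. Clusters 6 and 11 had means of 2.01 and 1.89, cluster 9 one of 2.26 and cluster 5 one of 1.06, and the means of clusters 1, 3, 8 and 12 lay between 0.393 and 0.476. At least 1 mitotic kinesin was found in 98.7% of the cells of cluster 2 (95% exact binomial interval 98.1 to 99.2%) and in 31.5% of those of cluster 12 (27.8 to 35.3%). These intervals cover counting error only. Free RNA in the droplets can give a UMI to any cell, and its part in these shares was not tested. The shares in clusters 1 (34.5%), 3 (31.6%) and 8 (32.5%) were close to that of cluster 12. Median depths before thinning were 12971, 16498 and 13175 UMIs in these 3 and 19220 in cluster 12. Single kinesins differed more, with KIF22 in 20.2% of the cells of cluster 12 and 9.41% of those of cluster 8, and KIF20A in 1.31% and 6.16%. A share of this size alone does not show expression. Before thinning, 39.99% of the cells of cluster 1 and none of those of cluster 2 lacked a mitotic kinesin. The mean number of transport kinesins per thinned cell stayed between 1.71 (cluster 9) and 2.204 (cluster 12) in the 11 deeper clusters.

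The division was also seen with no use of the clusters. Cells thinned to 5000 UMIs were sorted by their UMIs on G2 and M phase genes. That list contains no member of the family but does contain the kinesin CENPE. Cells with at most 4 such UMIs had 0.550 and 0.590 mitotic kinesin UMIs per 10000 UMIs in replicates 1 and 2. The level was 1.89 and 1.82 in cells with 10 to 19, 4.80 and 4.95 in cells with 20 to 39, and 16.6 and 16.1 in cells with at least 80. Transport kinesins went from 11.6 and 11.2 in the lowest bin through 9.15 and 9.04 in the bin of 20 to 39 to 10.7 and 10.8 in the highest bin. KIF5B alone followed that course, with 9.22 and 8.85 in the lowest bin, 7.15 and 7.01 in the bin of 20 to 39, and 8.53 and 8.49 in the highest. The bins differ in cluster, since clusters 2 and 4 made up none of the lowest bin and 98.2 and 99.2% of the highest in replicates 1 and 2. Clusters 2 and 4 were also described by these same G2 and M phase genes. A rise of the mitotic kinesins over the bins was thus largely fixed in advance and is no separate support.

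**Figure D3:**
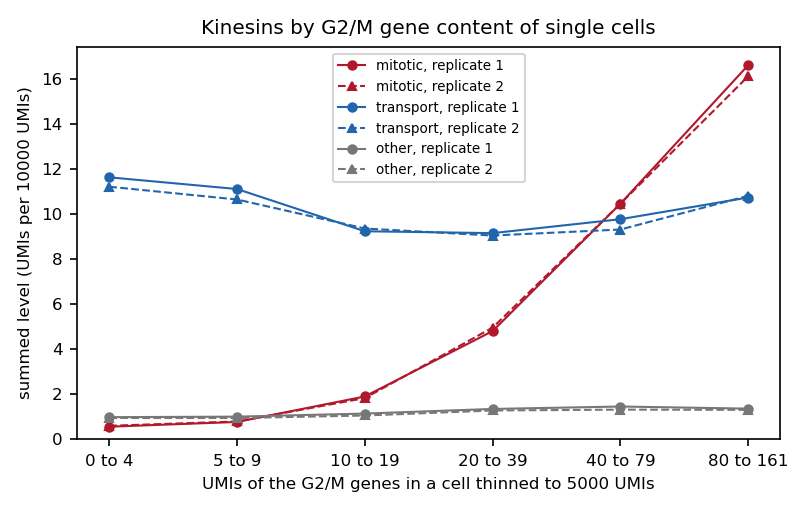
Summed level of the mitotic, transport and other kinesins (UMIs per 10000 UMIs) in cells grouped by their UMIs on G2 and M phase genes after thinning to 5000 UMIs, with solid lines for replicate 1 and dashed lines for replicate 2. The mitotic lines rose from 0.550 and 0.590 to 16.6 and 16.1, and the transport lines stayed between 9.04 and 11.6.

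Cluster 2 was compared with cluster 6 to show how kinesins differ between cells rich in G2 and M phase transcripts and cells rich in S phase transcripts. UMIs were summed per library and cluster and tested as 2 sums against 2 with edgeR's quasi-likelihood test and Benjamini-Hochberg adjustment over all genes, with a call at an adjusted p under 0.05. The filter on low counts left out the 6 members with under 100 UMIs in this comparison. Since both libraries were made from the same cultured cells, such p-values cover only the sampling of cells and library preparation. Clusters made from these counts differ in them by construction. Of 31 kinesins tested, 14 were higher in cluster 2, where 7.43% of all tested genes were, and 2 were lower, where 7.20% of all were. Among 12 mitotic kinesins tested, 11 were higher and none lower, with a median log2 fold change of 1.21 beside -0.0062 for all genes tested.

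The largest difference was that of KIF20A, at 1.36 and 1.33 UMIs per 10000 UMIs in replicates 1 and 2 of cluster 2 and 0.385 and 0.392 in cluster 6, a log2 fold change of 1.77 ± 0.049 (SE; edgeR, adjusted p = 7.75e-06). KIF23, the motor of centralspindlin at the midzone, stood at 1.32 and 1.28 against 0.448 and 0.4097, a log2 fold change of 1.58 ± 0.061. The microtubule depolymerase KIF2C (1.55), the chromosome-bound KIF4A (1.55) and KIF11 (1.47) came next in log2 fold change. KIF20B (1.21), KIF14 (1.2), which binds citron kinase in cytokinesis, and KIFC1 (1.18), the minus-end motor that focuses spindle poles, followed. The smallest difference among the 11 was that of KIF22, singled out after its value was seen, with 1.56 and 1.599 against 0.765 and 0.799 and a log2 fold change of 0.99 ± 0.046. The libraries of the 2 clusters did not overlap for any of these kinesins. All of them had been called on the same libraries, so this is no added support. The share of all genes without overlap was not counted.

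Of 12 transport kinesins tested in the same comparison, 2 were higher and 1 was lower, with a median log2 fold change of 0.03. KIF16B, which moves early endosomes, was lower in cluster 2, at 0.0839 and 0.08402 against 0.123 and 0.124 and a log2 fold change of -0.58 ± 0.097 (edgeR, adjusted p = 0.0119). KIF21A, an inhibitor of microtubule growth, was lower with -0.47 ± 0.072. Both calls were lost with DESeq2, at adjusted p-values of 0.0734 and 0.0527, and 4 kinesins were lower in place of 2 with the library as a replicate block. With that block 2126 of all 11430 genes tested were lower, in place of 823. The 2 transport kinesins called higher were KIF5B (0.38) and KIF3B (0.41), a heavy chain of kinesin-2, named after their values were seen.

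The known partners of the motors were also looked at in that comparison. All 18 partners of mitotic kinesins tested were higher in cluster 2, with a median log2 fold change of 1.54. Many of them, such as CENPE, AURKA and CDK1, are also among the G2 and M phase genes by which cluster 2 was described. Their higher level there was fixed in advance and is no separate support. PRC1 and RACGAP1 are not among those genes. The same overlap holds in the comparisons below. CENPE, a kinesin of the kinetochore whose symbol lies outside the family rule, rose by 2.06, PRC1, which bundles midzone microtubules and recruits KIF4A, by 1.72, and RACGAP1, the partner of KIF23, by 0.91. Of 18 partners of transport kinesins tested, 2 were higher and none lower, with a median of 0.02, where 7.43% and 7.20% of all genes tested were.

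Cluster 4 against cluster 11 was a further comparison of this kind, in other cells of the same libraries. Fibroblast markers differed between these clusters as well, at 56.9 and 30.1 UMIs per 10000 UMIs, and their part was not tested. Of 29 kinesins tested, 15 were higher in cluster 4 (13.4% of all genes tested) and 1 was lower (14.3% of all). All 11 mitotic kinesins tested were higher, with a median log2 fold change of 1.46 beside -0.0023 for all genes. KIF23 led, at 1.23 and 1.24 UMIs per 10000 UMIs in cluster 4 and 0.329 and 0.366 in cluster 11, a log2 fold change of 1.86 ± 0.066 (SE; edgeR, adjusted p = 6.1e-06). KIF20A (1.51), KIFC1 (1.5), KIF4A (1.48), KIF11 (1.46), KIF14 (1.46) and KIF20B (1.38) followed, and KIF22 again showed the smallest log2 fold change of the list, 1.14 ± 0.051.

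Of 12 transport kinesins tested, 3 were higher in cluster 4 and none lower, with a median log2 fold change of 0.09. KIF1A, a carrier of synaptic vesicle precursors in neurons, was at 0.0718 and 0.0712 in cluster 4 and 0.0297 and 0.0227 in cluster 11, a log2 fold change of 1.47 ± 0.20. KIF3B and KIF5B were the other two, with 0.58 and 0.5, named after their values were seen. KIF21A was lower, at 0.176 and 0.174 against 0.257 and 0.238, with a log2 fold change of -0.47 ± 0.090. That call was lost with DESeq2, at an adjusted p of 0.0621, and 4 kinesins were lower with the library as a replicate block. With that block 2443 of all 11170 genes tested were lower, in place of 1595. The partners of mitotic kinesins were higher in 18 of 18 cases, and those of transport kinesins were higher in 2 and lower in 1 of 18. Of all genes tested, 13.4% were higher and 14.3% lower. Many of the partners of mitotic kinesins are again G2 and M phase genes, by which cluster 4 was described.

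Clusters 2 and 4, both rich in G2 and M phase transcripts, were compared with each other. They also differed in cell type markers, with 11.4 and 5.06 UMIs per 10000 UMIs on myoblast markers, 1.65 and 0.318 on myocyte markers and 25.4 and 56.9 on the fibroblast markers COL1A1 and S100A4, and the part of these differences in the kinesin levels was not tested. Of 31 kinesins tested, 3 were higher in cluster 2 and 2 were lower, beside 14.5% and 15.7% of all genes tested. Among the 12 mitotic kinesins, KIF2C was higher in cluster 2, at 0.681 and 0.6004 against 0.549 and 0.515 and a log2 fold change of 0.25 ± 0.074, and KIF18A, which limits chromosome movement at the spindle equator, was lower, at 0.304 and 0.285 against 0.376 and 0.329 and -0.27 ± 0.083. Their adjusted p-values with edgeR were 0.0431 and 0.0477, close to the threshold, and each call was lost in at least 4 alternatives. The median log2 fold change of the mitotic kinesins was 0.03.

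The largest called difference between clusters 2 and 4 was that of a transport kinesin. KIFC3, a minus-end motor known from the Golgi apparatus and cell junctions, was at 0.111 and 0.114 UMIs per 10000 UMIs in cluster 2 and 0.0438 and 0.0467 in cluster 4, a log2 fold change of 1.3 ± 0.11 (SE; edgeR, adjusted p = 0.0004). KIF5B was higher with 0.2 ± 0.042. KIF16B was lower with -0.43 ± 0.099, a call lost with DESeq2 (adjusted p = 0.219) and with edgeR on rebuilt clusters (adjusted p = 0.0872). The count of lower kinesins ran from 0 with DESeq2 to 6 with the library as a replicate block and 8 with clusters rebuilt without kinesin genes. Of all genes tested, 1818 of 11561 were lower in the main fit and 1009 of 15620 with DESeq2. With the block 2769 of 11561 were lower, and with rebuilt clusters 1799 of 11239. The log2 fold changes of KIFC3 and KIF5B passed the test in every alternative that was tested.

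Cluster 6 against cluster 1 compared cells rich in S phase transcripts with cells low in both S and G2 and M phase transcripts. Cluster 6 also had more G2 and M phase transcripts, at 57.0 UMIs per 10000 UMIs against 17.95 in cluster 1. The parts of the S phase and of the G2 and M phases were not tested. Fibroblast markers stood at 27.4 UMIs per 10000 UMIs in cluster 6 and 51.5 in cluster 1, and their part was not tested. Of 30 kinesins tested, 14 were higher in cluster 6 (20.6% of all genes tested) and 5 were lower (17.0% of all). All 11 mitotic kinesins tested were higher, with a median log2 fold change of 2.73 beside 0.0015 for all genes. KIF14 stood at 0.104 and 0.101 UMIs per 10000 UMIs in cluster 6 and 0.0116 and 0.00782 in cluster 1, a log2 fold change of 3.35 ± 0.21 (SE; edgeR, adjusted p = 1.89e-05). KIF18A followed with 3.33 ± 0.18, from 0.01397 and 0.0114 to 0.124 and 0.139, and KIF20B with 3.01 ± 0.080, from 0.146 and 0.144 to 1.25 and 1.13. KIF23 (2.84), KIF15 (2.82), a motor that can stand in for KIF11, KIF11 (2.73) and KIF2C (2.28) were also higher.

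KIF20A, which differed most between clusters 2 and 6, showed the smallest log2 fold change of the 11 here, 1.25 ± 0.081, from 0.1502 and 0.171 in cluster 1 to 0.385 and 0.392 in cluster 6. It was singled out after its value was seen, and as both comparisons contain cluster 6 their log2 fold changes are not independent. KIF24, a depolymerase that restrains cilium assembly at the centriole, went with the mitotic kinesins, at 0.0586 and 0.0492 in cluster 6 and 0.00815 and 0.0108 in cluster 1, with 2.47 ± 0.25 on the log2 scale. KIF2A, which acts at spindle poles and in neurons, was higher by 0.79 ± 0.059 and KIF21A by 0.34.

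Of 12 transport kinesins tested, none was higher in cluster 6 and 4 were lower, with a median log2 fold change of -0.08. KIF1A was at 0.0873 and 0.0793 in cluster 6 and 0.226 and 0.212 in cluster 1, a log2 fold change of -1.42 ± 0.099 (edgeR, adjusted p = 3.24e-05). KIFC3 (-0.6) and KIF5B (-0.4) were lower too. KIF5C, a heavy chain of kinesin-1 best known in neurons, had a log2 fold change of -0.73, whose call was lost with DESeq2 and with rebuilt clusters. KIF27, a cilium-linked kinesin of the third group, was lower with -0.59. Partners of mitotic kinesins were higher in 17 of 18 cases. Those of transport kinesins were higher in 6 and lower in 4 of 18, where 20.6% and 17.0% of all genes tested were. Among the lower ones was KIFAP3, the adaptor of kinesin-2, with a log2 fold change of -0.58.

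**Figure D4:**
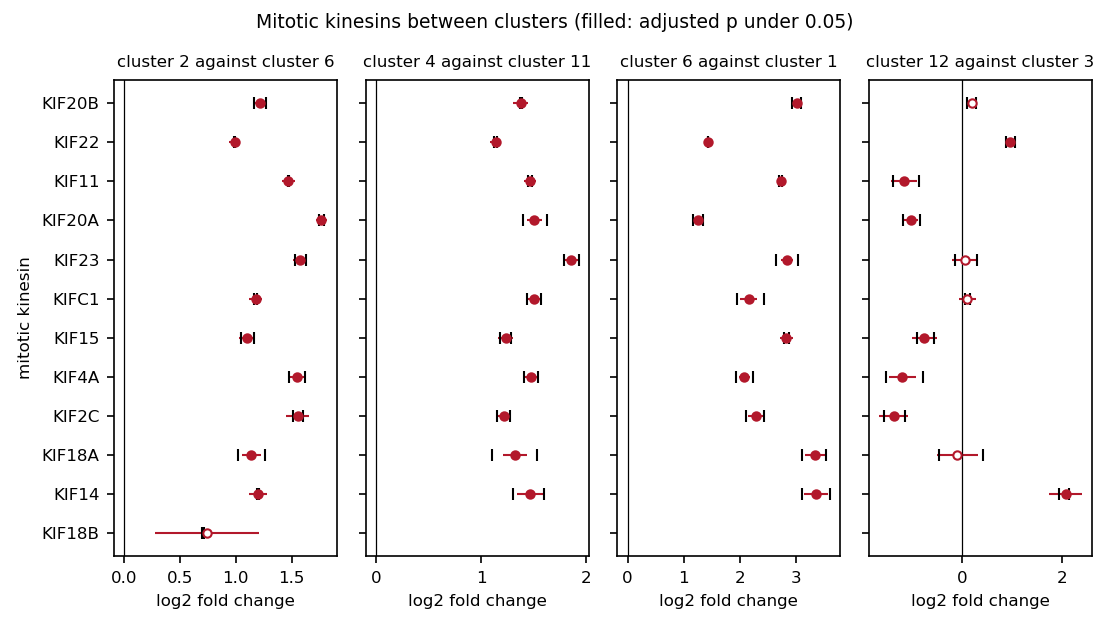
Log2 fold changes of the mitotic kinesins in 4 comparisons of clusters, with circles for the edgeR estimate, horizontal bars for its standard error, short vertical ticks for each library alone and filled circles for an adjusted p under 0.05. In the first 3 panels every kinesin but KIF18B was higher, with log2 fold changes from 0.99 to 3.35, and in the last 5 were lower and 2 higher.

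Clusters 3 and 1 were both low in cell cycle transcripts and differed in myocyte markers, at 9.01 and 1.56 UMIs per 10000 UMIs. They also differed in fibroblast markers, at 20.7 and 51.5, and in myoblast markers, at 17.7 and 11.7. The part of these differences was not tested. None of the 11 mitotic kinesins tested was called with edgeR in either direction, and none had an unadjusted p under 0.05, with log2 fold changes between -0.1 (KIF15) and 0.36 (KIF14). DESeq2 called none of 12 either, and with clusters rebuilt without kinesin genes 5 of 10 were called. The median log2 fold change of the mitotic kinesins was 0.07 in the main fit and 0.65 with the rebuilt clusters. Of all 10576 genes tested on the rebuilt clusters, 1769 were higher and 1613 lower. Of 29 kinesins tested, 6 were higher in cluster 3 (21.1% of all genes tested) and 3 lower (19.1% of all), all of them transport or other kinesins. KIFC3 was at 0.183 and 0.208 in cluster 3 and 0.125 and 0.128 in cluster 1, a log2 fold change of 0.66 ± 0.089 (SE; edgeR, adjusted p = 0.00117). KIF5B was at 10.4 and 10.05 and 8.59 and 8.07, with 0.34 ± 0.052, and KIF13A, a motor of recycling endosomes, at 0.174 and 0.177 and 0.101 and 0.137, with 0.6 ± 0.14.

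The calls of KIFC3 and KIF5B between clusters 3 and 1 depended on how cells were assigned. With clusters rebuilt without kinesin genes, where the matched clusters shared cells with a Jaccard index of 0.453 and 0.424, KIFC3 had a log2 fold change of 0.03 and KIF5B one of -0.11. KIF1A was lower in cluster 3, at 0.155 and 0.154 against 0.226 and 0.212 and a log2 fold change of -0.47 ± 0.077, and KIF27 was lower with -0.57 ± 0.096. KIF2A (0.32), KIF21A (0.28), KIF3A (0.19) and KIFC2 (-0.5), a minus-end motor of neurons, completed the list, and each of these 4 calls was lost in at least 1 alternative.

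Cluster 12, where myocyte markers were highest, was compared with cluster 3. Of 29 kinesins tested, 7 were higher in cluster 12 (18.2% of all genes tested) and 7 lower (15.6% of all). KIFC3 was at 0.481 and 0.503 UMIs per 10000 UMIs in cluster 12 and 0.183 and 0.208 in cluster 3, a log2 fold change of 1.43 ± 0.090 (SE; edgeR, adjusted p = 1.87e-05). KIF1A was at 0.286 and 0.273 and 0.155 and 0.154, with 0.95 ± 0.092. KIF5B, the most abundant kinesin of all, was at 16.4 and 15.7 and 10.4 and 10.05, with 0.74 ± 0.054 and an adjusted p of 3.85e-05 by edgeR. KIF1C was higher with 0.27 ± 0.066, a call lost with DESeq2 and with rebuilt clusters.

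Among the transport kinesins KIF3A went the other way, at 0.358 and 0.398 in cluster 12 and 0.625 and 0.644 in cluster 3, with a log2 fold change of -0.65 ± 0.075. Its kinesin-2 partner chain KIF3B did not pass the test, with -0.05 ± 0.13. The median log2 fold change of the 12 transport kinesins was 0.34, beside -0.02 for all genes, with 4 higher and 1 lower. Of 18 partners of transport kinesins, 3 were higher and 2 lower, where 18.2% and 15.6% of all genes tested were, so these counts do not set the partners apart. MAP7D1, of the family of proteins that recruit kinesin-1 to microtubules, had a log2 fold change of 0.91, and SYNE2, which links nuclei to the cytoskeleton, one of -1.18.

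The mitotic kinesins split between clusters 12 and 3. KIF2C, at 0.01301 and 0.0208 against 0.0438 and 0.0499, had a log2 fold change of -1.37 ± 0.29, and KIF4A (-1.19), KIF11 (-1.17), KIF20A (-1.02) and KIF15 (-0.75) were lower too. KIF22 was higher, at 0.489 and 0.478 against 0.254 and 0.277 and 0.96 ± 0.083, and so was KIF14, at 0.0374 and 0.0591 against 0.0106 and 0.01400 and 2.07 ± 0.33, with adjusted p-values of 9.32e-05 and 0.00212 by edgeR. The calls of KIF2C and KIF15 were lost with DESeq2, and those of KIF22 and KIF14 were kept in every alternative that was tested. Of 18 partners of mitotic kinesins, 9 were lower and 1 was higher. CDCA8, a subunit of the chromosomal passenger complex, was the higher partner, with 0.86, and among the lower ones were BIRC5 (-1.1), of the same complex, and HMMR (-1.51), a spindle protein. KIF21A, of the third group, was lower with -0.69 and KIF2A higher with 0.48.

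In cluster 12 many cells with KIF22 carried no other mitotic kinesin. Without thinning, KIF22 was found in 319 of 627 cells of cluster 12, or 50.9%, and 57.4% of these had no UMI of another mitotic kinesin. In cluster 2 it was found in 91.4% of the cells, and 0.103% of those had no other. Among the 630 cells of cluster 3 with KIF22 this share was 40.8%. It was 45.3% in cluster 1, 47.4% in cluster 8 and 58.3% of 48 cells in the shallow cluster 13. High shares are thus not particular to cluster 12, though its share was the highest of the 11 deeper clusters. Whether the share follows the number of mitotic kinesins per cell was not tested. Without thinning, cells of cluster 12 held a mean of 1.23 mitotic kinesins, beside 1.08 for cluster 1 and 0.935 for cluster 8. After thinning to 5000 UMIs, KIF22 was found in 20.2% of the cells of cluster 12 (95% exact binomial interval 17.1 to 23.6%) and in 11.5% of those of cluster 3 (10.2 to 12.99%). KIF14 was found in 54 cells of cluster 12, or 8.61%, and 24.1% of these had no other mitotic kinesin. In cluster 1 that share was 22.6% of 31 cells with KIF14, and in cluster 3 it was 14.6% of 41.

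Cluster 9, which carries the markers of fibro-adipogenic cells, was compared with cluster 1, in which myoblast markers were present (DES at 5.01 UMIs per 10000 UMIs, against 0.890 in cluster 9). Cluster 9 also had more S and more G2 and M phase transcripts, so cell type and cell cycle cannot be told apart in it. Of 29 kinesins tested, 14 were higher in cluster 9 (31.3% of all genes tested) and 8 lower (31.9% of all). All 11 mitotic kinesins tested were higher, with a median log2 fold change of 2.86, and KIF18A (0.167 and 0.163 against 0.01397 and 0.0114) led with 3.57 ± 0.17. KIF14 (3.35), KIF11 (3.12), KIF20B (2.93), KIF15 (2.87), KIF23 (2.86), KIF2C (2.69) and KIF4A (2.49) followed.

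Of 12 transport kinesins tested, 7 were lower in cluster 9, 1 was higher and 4 were not called, where 31.9% of all genes tested were lower, with a median log2 fold change of -0.41 beside -0.028 for all genes. KIF1A was at 0.0183 and 0.00575 UMIs per 10000 UMIs in cluster 9, or 33 UMIs in 1080 cells, and 0.226 and 0.212 in cluster 1, a log2 fold change of -4.24 ± 0.27 (SE; edgeR, adjusted p = 3.31e-06). KIF13B, a motor of membrane receptors, was at 0.0176 and 0.0131 and 0.0664 and 0.0698, with -2.25 ± 0.21. KIF5C (-2.24 ± 0.27) and KIFC3 (-2.1 ± 0.14) differed by a like amount.

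KIF5B was lower as well, at 5.18 and 4.95 in cluster 9 and 8.59 and 8.07 in cluster 1, with a log2 fold change of -0.83 ± 0.057. KIF1C (-0.44) and KIF3A (-0.22) had smaller differences, and that of KIF3A lost its call in 3 alternatives. KIF27 was lower with -0.37, a call lost with DESeq2. The transport kinesin that was higher was KIF3C, another heavy chain of kinesin-2, at 0.0866 and 0.0969 against 0.0501 and 0.0572, with 0.66 ± 0.15, named after its value was seen. All 18 partners of mitotic kinesins tested were higher. Of 18 partners of transport kinesins 6 were higher and 5 lower, near the shares of all genes tested (31.3% and 31.9%). The largest fall among them was that of TRAK1 (-0.94), which links kinesin-1 to mitochondria.

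**Figure D5:**
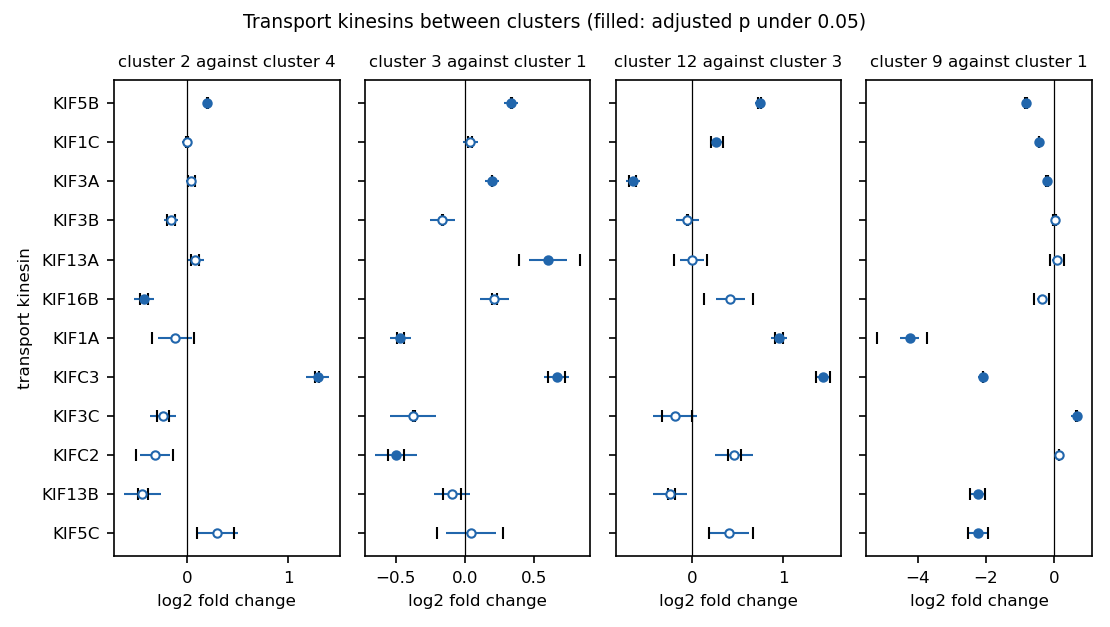
Log2 fold changes of the transport kinesins in 4 comparisons of clusters, drawn as for the mitotic kinesins (circles for edgeR estimates, bars for standard errors, ticks for each library, filled where the adjusted p was under 0.05). KIFC3 was higher in the first 3 panels and lower, with -2.10, in cluster 9, where KIF1A had the lowest value of all, -4.24.

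Over all clusters KIF5B was highest in cluster 12, at 16.03 ± 0.47 (SD, n = 2 libraries) UMIs per 10000 UMIs, and lowest in cluster 9, at 5.06 ± 0.16. Cluster 3 came second among the deeper clusters with 10.2 ± 0.28, followed by clusters 2 (8.498 ± 0.30), 10 (8.34 ± 0.046) and 1 (8.33 ± 0.36), which did not differ beyond the spread between libraries. Clusters 4 (7.33 ± 0.17), 8 (6.84 ± 0.19), 6 (6.44 ± 0.22), 5 (6.100 ± 0.15) and 11 (5.298 ± 0.095) lay below them. In cluster 7 the libraries gave 13.1 and 9.803, the widest gap of any cluster.

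Among the 11 deeper clusters, cluster 10 had the highest levels of the transport kinesins KIF1C, KIF3B, KIF3C, KIF13A and KIFC2 and the lowest of KIF3A. KIF1C was at 1.48 and 1.51 in the 2 libraries of cluster 10 and at 1.69 and 1.59 in the shallow cluster 13, and between 0.587 and 0.831 on average in the other deeper clusters. KIF3A was at 0.238 and 0.2104 in cluster 10, at 0.314 and 0.0948 in cluster 13 and at 0.358 and 0.398 in cluster 12, and between 0.531 and 0.675 on average in the other deeper clusters. KIF3B, which pairs with KIF3A, had its highest level of the deeper clusters in cluster 10, at 0.346 and 0.269. These 2 clusters had a median of 5398.5 and 1631 UMIs per cell and more ribosomal protein transcripts (2725 and 2785 UMIs per 10000 UMIs) than the others, and the part of depth and composition in these levels was not tested. No test was run on cluster 10.

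The 11 other kinesins were mostly scarce. KIF2A was between 0.502 (cluster 8) and 0.977 (cluster 6) UMIs per 10000 UMIs in the deeper clusters, and KIF21A between 0.111 (cluster 12) and 0.248 (cluster 11). KIF24 was highest in cluster 2, at 0.07002 ± 0.0027, and lowest in cluster 1, at 0.00949 ± 0.0019. KIF9 (894 UMIs) and KIF19 (128 UMIs), kinesins of motile cilia, and KIF7 (700 UMIs), which acts in Hedgehog signalling at the cilium, passed the test in none of the comparisons in which they were tested. KIF26B had 22 UMIs, of which 11 lay in cluster 8, and KIF26A had 9, of which 6 lay in cluster 12, counts too low for a comparison.

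Levels of the mitotic kinesins moved together over the 15 clusters and those of the transport kinesins, taken as a whole list, did not. Pearson's r of log2 levels, over clusters that share the same libraries, had a median of 0.946 over the 55 pairs of mitotic kinesins with at least 1000 UMIs, with a range from 0.822 to 0.990. The 55 pairs of transport kinesins had a median of 0.278, with a range from -0.770 to 0.844, and the 121 mixed pairs a median of 0.0499. Over the 11 deeper clusters these medians were 0.974, 0.163 and -0.0095. Some transport kinesins did share a pattern over the 15 clusters, named after their values were seen. KIF5B went with KIFC3 (r of 0.844) and KIF1A (0.819), and KIFC3 with KIF1A (0.759), while KIF1C and KIF3A went opposite ways (-0.770). Among 9041 other genes with at least 1000 UMIs, those most like the summed mitotic kinesins over the 15 clusters included NDC80 (r of 0.988), TOP2A (0.985), SMC4 (0.981) and RACGAP1 (0.981). Those most like KIF5B were DTNA (0.965), STK17B (0.955), FHOD3 (0.955), MUSK (0.95) and KAT2B (0.942), and those most like KIF1C were SNX12 (0.967), NF2 (0.957), AP2A2 (0.945), FEM1A (0.943) and REPIN1 (0.937). Over the 11 deeper clusters TOP2A was the only one of these named genes that was again among the 5 most alike.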

How the data were processed

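The data were single-cell RNA sequencing counts of 2 libraries. Per the labels and the study's methods, mapping to the bovine genome ARS-UCD1.2, UMI counting, cell calling, the merging of both libraries and the clustering were done by the authors in Cell Ranger 3.0.2, and the deposited values are whole-number UMI counts for 21867 genes in 19096 cells. They also deposited, per gene and cluster, an average UMI signal scaled to a common total of 14889, and fold changes and p-values of their own, which were not used. Each cell was assigned to its library by its barcode suffix. Its cluster was deduced from the deposited averages, which convert to whole UMI sums, and the deduced sums equalled the deposited ones in all 252240 pairs of gene and cluster.

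UMIs were summed per library and cluster, and 7 pairs of clusters were compared with the quasi-likelihood test of edgeR 4.0.16 (TMM, filterByExpr, Benjamini-Hochberg adjustment over all genes tested). The fitting was tested on simulated counts. Library depths were 145631299 and 137818568 UMIs. The library number pairs the sums. The log2 ratios of replicate 1 to replicate 2 of the 2 clusters compared correlated with r between 0.396 and 0.520 over genes. The main fit did not use this pairing, and the alternative with a replicate block did. Doublets were kept in the main values. The members and lists were chosen with earlier results of these data known. In each comparison at most 8 called kinesins per direction were named by size of the log2 fold change, and kinesins outside this rule and all partners were named after their values were seen.

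The alternatives were DESeq2 1.42.0, RLE size factors, no filter on low counts, a replicate block, sums without doublets, sums without the 1898 cells under 2000 UMIs, all clusters in 1 fit, clusters rebuilt without kinesin genes, and each library alone. The automatic Scrublet threshold called 1 cell, so the 8% of cells with the highest scores in each library were left out instead, a choice made after seeing the data. The rebuilt clusters came from Louvain clustering in igraph 0.11.9 (9106 genes, 10 components, 284 neighbours, resolution 1.8). The kinesin genes left out of them were those that match the family rule. These settings were chosen among several by the match to the deposited clusters, which ranged from a Jaccard index of 0.235 to 0.991. No sequence was analysed here. One gene among those most like the mitotic kinesins is not reported here.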

Additional observations from a re-analysis of the deposited data

How the results depend on the processing

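Of 14 counts of kinesins called, 11 stayed within 1.5 times their value in every alternative, and the 3 that did not were counts of lower kinesins at or below 2. A count can stay while its members change. With rebuilt clusters in cluster 3 against cluster 1, KIFC3, KIF2A and KIF21A lost their calls, and 5 of 10 mitotic kinesins were called in place of 0 of 11. Rebuilt clusters also moved the median log2 fold change of the mitotic kinesins. It went from 1.21 to 0.89 in cluster 2 against cluster 6, from 1.46 to 2.09 in cluster 4 against cluster 11, and from 0.03 to -0.24 in cluster 2 against cluster 4. In cluster 2 against cluster 6 the count of 2 became 0 with DESeq2 and 4 with the replicate block. In cluster 4 against cluster 11 the count of 1 became 0 with DESeq2, 4 with the block and 2 with rebuilt clusters. In cluster 2 against cluster 4 the count of 2 became 0 with DESeq2, 1 with RLE size factors, 1 with no filter on low counts, 1 with all clusters in 1 fit, 6 with the block and 8 with rebuilt clusters. With the block the count of all genes called lower rose too, from 823 to 2126, from 1595 to 2443 and from 1818 to 2769. The cause of these changes was not tested. KIF5B in cluster 3 against cluster 1 turned from a log2 fold change of 0.34 to -0.11 with rebuilt clusters (edgeR, adjusted p = 0.145). Of 76 named results, 18 lost their call in at least 1 alternative, 15 of them with DESeq2, 8 with rebuilt clusters and none with the block. All 76 kept their sign in each library alone, which is little support, since they were chosen by a test on both libraries. A single library leaves no residual degrees of freedom and gave no count of calls. Shares of cells with a UMI rose with depth: at least 1 mitotic kinesin was found in 31.5% of the cells of cluster 12 at 5000 UMIs and in 14.7% at 2000. Levels from the deposited averages lay within the spread between libraries in all 30 sums. They pool the same UMIs over both libraries, so this was fixed in advance and tests nothing. With 1 calf, no spread between animals can be given. Leaving out the cells that Scrublet itself calls doublets was not run, since it called 1 cell.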
